A study of Mus musculus with 36 samples.

Results

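The regions of open chromatin that lie nearest to 5 primary granule genes, Mpo, Elane, Prtn3, Ctsg and Ms4a3, were examined. They were chosen by position alone: ATAC-seq peaks of 36 libraries sharing 1 bp or more were joined into 105005 regions, and the 15 regions whose centre lay nearest to a protein-coding transcription start site (TSS) of one of these genes were kept. Mpo had 5 of them, Elane 3, Prtn3 2, Ctsg 3 and Ms4a3 2. Each region is called here by its gene and the distance in bp from that TSS to its centre, negative when upstream. The nearest gene need not be the gene on which a region acts.

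ATAC-seq, in which a transposase puts sequencing adapters into accessible DNA, was performed on 20000 sorted cells per library from the bone marrow of female C57BL/6 mice, for which the labels name no treatment or transgene, either young (10 weeks) or aged (20 months). Lineage-negative cells were sorted into 8 fractions by surface markers: hematopoietic stem cells (HSCs; c-kit+ and Sca-1+, with CD150+ but CD34-, CD48- and Flt3-), multipotent progenitors in 4 classes (all c-kit+, Sca-1+ and CD34+; MPP1 are CD150+ and CD48-, MPP2 CD150+ and CD48+, MPP3 CD150- and CD48+, and MPP4 differ from MPP3 in being Flt3+ in place of Flt3-), granulocyte-macrophage progenitors (GMPs; Sca-1- c-kit+ FcgR+ CD34+), megakaryocyte-erythrocyte progenitors (MEPs; Sca-1- c-kit+ FcgR- CD34-) and common lymphoid progenitors (CLPs; IL-7+, Sca-1 low and c-kit low). The labels give IL-7- for the fractions other than CLPs, and per the methods the stain was for the receptor, IL-7Rα. There were 4 libraries of HSCs at each age and 2 of each remaining fraction. The study calls the libraries biological replicates, and describes the marrow of each age as pooled and sorted more than once, so that libraries of one age may share their animals and p-values may measure only the spread between sorts and libraries.

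Primary (azurophilic) granules are made in promyelocytes, the first granule-forming stage of neutrophil development, and their genes are among the first of the granulocyte program to be switched on as GMPs mature. Mpo encodes myeloperoxidase, which makes hypochlorous acid. Elane (neutrophil elastase), Prtn3 (proteinase 3) and Ctsg (cathepsin G) encode serine proteases that are stored in the same granules, and Ms4a3 encodes a membrane protein of granulocyte-monocyte progenitors. Prtn3 and Elane lie next to each other on chromosome 10, with 6633 bp between their start sites. Factors of the C/EBP, PU.1, RUNX and MYB families are known to act on promoters of this program.

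Of the 15 regions, 4 lay within 500 bp of the TSS, 1 each at Mpo, Elane, Ctsg and Ms4a3. No region lay at the protein-coding TSS of Prtn3, and the region nearest to it, Prtn3 -1538, lay in an intron of a longer Prtn3 transcript that is not annotated as protein-coding. To show what was opened, the reference sequence (mm10) within 100 bp of the median summit is given for these 5 regions, 5′ to 3′ on the strand of the gene and, for Mpo, Elane and Ctsg, as far as the base before the TSS. Capitals mark matches on either strand to the core motifs of 5 families of transcription factors. The core of C/EBP factors was searched as TTGCNNAA. That of PU.1 and its relatives was searched as GAGGAA. For RUNX factors the letters were TGTGGT. For MYB they were AACNGNC. For the GATA family, which acts in erythroid and megakaryocytic cells, they were AGATAA.
Mpo +35 (chr11:87793498-87793580, plus strand): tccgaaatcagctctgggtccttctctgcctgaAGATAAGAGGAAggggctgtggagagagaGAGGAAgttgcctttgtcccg
Elane -35 (chr10:79886155-79886246, plus strand): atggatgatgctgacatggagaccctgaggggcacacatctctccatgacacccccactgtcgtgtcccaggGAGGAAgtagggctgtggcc
Ctsg +33 (chr14:56102575-56102667, minus strand): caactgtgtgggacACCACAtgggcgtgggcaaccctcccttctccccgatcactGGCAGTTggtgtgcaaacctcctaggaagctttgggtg
Ms4a3 -102 (chr19:11640841-11641041, minus strand): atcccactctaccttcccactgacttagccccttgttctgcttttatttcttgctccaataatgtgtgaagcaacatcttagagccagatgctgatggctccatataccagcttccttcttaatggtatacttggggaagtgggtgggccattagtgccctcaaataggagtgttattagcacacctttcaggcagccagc
Prtn3 -1538 (chr10:79877959-79878159, plus strand): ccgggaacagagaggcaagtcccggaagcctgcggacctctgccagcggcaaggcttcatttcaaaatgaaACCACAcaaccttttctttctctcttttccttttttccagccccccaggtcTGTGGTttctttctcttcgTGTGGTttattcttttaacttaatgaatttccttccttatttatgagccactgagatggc

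Within 100 bp of the summit, the regions at the start of Mpo, Elane and Ctsg each held both a PU.1 and a MYB core match. There were 2 of PU.1 in Mpo and 2 of MYB in Elane, and Ctsg also held a RUNX core. In Mpo both PU.1 cores start upstream, at 61 and 38 bases before the summit, and the first directly follows a GATA core. In Elane the PU.1 core starts 28 bases before the summit. The MYB cores start 21 bases beyond the summit in Mpo, and 7 and 35 bases beyond it in Elane. They lie past the TSS and therefore outside the sequences shown. In Ctsg the PU.1 core starts 51 bases beyond the summit and therefore also past the TSS. Ms4a3 -102 held none of the 5 motifs. Prtn3 -1538 held 3 RUNX cores, at 29 bases before and 22 and 41 bases after the summit, and no other of the motifs. Matches are letters in these windows of 201 bases and do not show binding.

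Upstream, 3 of the distal regions held the C/EBP core, and these are shown because no region at a TSS held it. Mpo -13944 lies in an intron of the neighbouring gene Tspoap1, and Mpo -3283 and Elane -1588 lie between genes.
Mpo -13944 (chr11:87779547-87779747, plus strand): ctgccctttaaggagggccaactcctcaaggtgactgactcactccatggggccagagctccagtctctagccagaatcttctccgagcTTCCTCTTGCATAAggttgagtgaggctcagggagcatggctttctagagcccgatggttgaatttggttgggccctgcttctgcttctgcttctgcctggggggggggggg
Mpo -3283 (chr11:87790165-87790365, plus strand): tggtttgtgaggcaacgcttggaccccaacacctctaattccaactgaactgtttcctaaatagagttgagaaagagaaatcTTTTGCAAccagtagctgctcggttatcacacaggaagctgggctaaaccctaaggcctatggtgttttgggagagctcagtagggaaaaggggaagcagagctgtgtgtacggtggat
Elane -1588 (chr10:79884560-79884760, plus strand): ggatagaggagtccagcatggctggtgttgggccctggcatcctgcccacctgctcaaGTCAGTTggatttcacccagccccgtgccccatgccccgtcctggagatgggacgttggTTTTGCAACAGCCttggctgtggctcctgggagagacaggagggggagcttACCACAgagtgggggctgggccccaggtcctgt

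Over the 15 regions, the C/EBP core was present in 3, the PU.1 core in 6, the RUNX core in 4, the MYB core in 8 and the GATA core in 1. Among 104825 regions of the catalogue with a sequence on the main chromosomes, windows of the same length held them in 13.2%, 34.1%, 25.7%, 26.3% and 10.3%, respectively, and the 12231 promoter regions in 6.4%, 21.2%, 10.6%, 23.6% and 3.78%. The GC content of the 15 windows had a median of 53.7%, against 49.8% over all regions and 63.7% over promoter regions. Their CpG content had a median observed-to-expected ratio of 0.268, close to the 0.26 of all regions and below the 0.762 of promoter regions, and the window of Ms4a3 -102 held no CpG.

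All 15 regions had a peak in at least 1 GMP library, as did 69.8% of all 105005 regions, and 12 had one in all 4, against 41.9% of all regions. Of the 15, 6 had a peak in GMPs and in no library outside them, against 24.1% of all regions. The strength of a region in a library is given as the highest fold enrichment of its peaks, a ratio of reads over the summit to the local background computed by MACS2. The number of reads over the summit and the local background, both in reads, were recovered from the deposited fold enrichment and p-value, which gave whole reads for all 107 peaks of the 15 regions. The smallest summit that was called in a library held 6 or 7 reads in GMPs and 7 or 8 elsewhere. More reads are needed for a call where the local background is higher. A region without a peak thus had too few reads over its local background to be called and was not shown to be closed. The narrowest peak of a library was 132 to 139 bp wide in GMPs and 163 to 191 bp wide elsewhere, and the lowest recovered background was 0.634 to 0.669 reads in GMPs and 0.783 to 0.919 elsewhere, so reads over a summit were not counted over the same width in GMPs as in the other fractions. The part of this in the differences between fractions was not tested. Accessibility in bulk cells cannot tell a smaller share of open cells from less open chromatin in each cell.

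**Figure D1:**
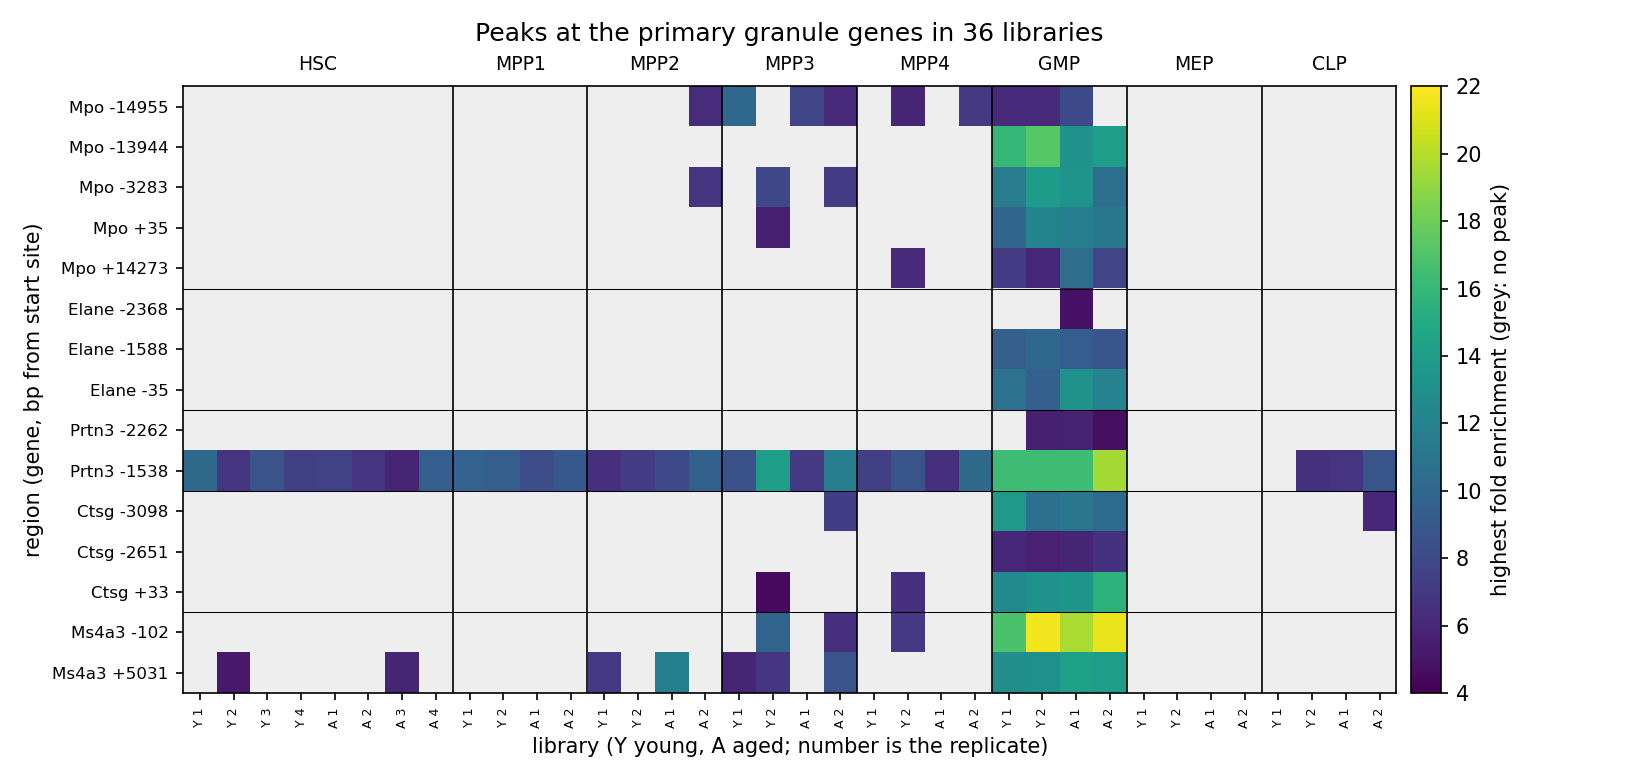
Highest fold enrichment (color) of the peaks in each of the 15 regions (rows) in each of the 36 libraries (columns, ordered by fraction, age and replicate), with grey where no peak was called. The 4 GMP columns are filled in 12 rows, the 4 MEP columns are empty, and Prtn3 -1538 is the row with a peak in 31 libraries.

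**Figure D2:**
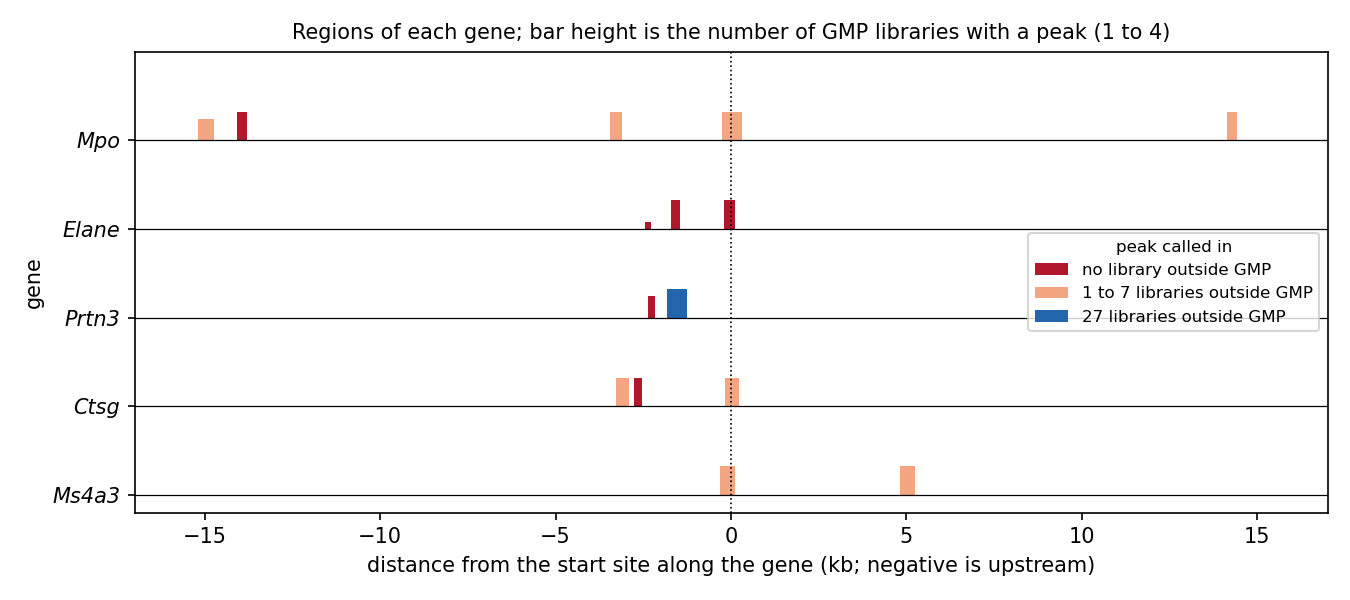
Position of the 15 regions along their gene (x axis, kb from the TSS) for each gene (rows), with the bar width as the region width and the bar height as the number of GMP libraries with a peak. Color gives the number of libraries outside GMPs with a peak, which was 0 for 6 regions (dark red), 1 to 7 for 8 regions (light red) and 27 for Prtn3 -1538 (blue).

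At the start of Mpo (Mpo +35, chr11:87793328-87793904, over the first exon), young GMPs had a fold enrichment of 9.9 and 12.1 and aged GMPs of 11.2 and 11.7. The only other peak was a weak one of 5.57 in 1 young MPP3 library, with 14 reads over the summit against 70 to 94 in GMPs. Of the other Mpo regions, Mpo -13944 (chr11:87779500-87779775) was the strongest and had a peak in no other fraction, with 16 and 17.3 in young and 13.2 and 14.1 in aged GMPs. Mpo -3283 (chr11:87790130-87790466) had 10.5 to 13.9 in GMPs, and 7.93 and 7.15 in 1 young and 1 aged MPP3 library and 6.79 in 1 aged MPP2 library. Mpo +14273 (chr11:87808333-87808631), in an intron of Lpo, the lactoperoxidase gene downstream, was weaker, with 6.06 to 10.4 in GMPs and 6.24 in 1 young MPP4 library. A start site of Gm11505, which is not protein-coding, lies nearer to this region than that of Mpo. The most distant region, Mpo -14955 (chr11:87778399-87778854), also in an intron of Tspoap1, had peaks in 9 libraries: those in 3 GMP libraries (6.12 to 8.01) overlapped in strength with those in 3 MPP3 libraries (6.18 to 10.1), and there were further peaks in 2 MPP4 libraries and 1 MPP2 library.

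At the start of Elane (Elane -35, chr10:79886057-79886367), 9.5 and 10.8 were measured in young and 12 and 13.2 in aged GMPs, and no other library had a peak. Elane -1588 (chr10:79884525-79884793) likewise had peaks in the 4 GMP libraries alone, between 8.77 and 10.1. Elane -2368 (chr10:79883808-79883951) was called in 1 aged GMP library at 4.89 and was too rare to be tested.

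At the start of Ctsg (Ctsg +33, chr14:56102343-56102739, over the first exon), young GMPs had 12.6 and 13.2 and aged GMPs 13.5 and 15.6. It also had peaks of 4.46 in 1 young MPP3 library and 6.45 in 1 young MPP4 library, with 11 and 13 reads against 110 to 149 in GMPs. Of the upstream regions, Ctsg -3098 (chr14:56105495-56105849) had 10.3 to 13.7 in GMPs, 7.35 in 1 aged MPP3 library and 6.05 in 1 aged CLP library. Ctsg -2651 (chr14:56105111-56105339) had 5.62 to 6.55 and was found in GMPs alone.

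Ms4a3 -102 (chr19:11640719-11641153), which spans the TSS, was the strongest of the 15 regions by its mean over GMPs, with 16.8 and 21.7 in young and 19.7 and 21.4 in aged GMPs. It had 9.79 in 1 young and 6.42 in 1 aged MPP3 library and 6.97 in 1 young MPP4 library, with 11 to 21 reads against 54 to 84 in GMPs. The intronic region Ms4a3 +5031 (chr19:11635563-11635986) had 12.9 to 14.3 in GMPs and had a peak in 7 libraries of the other fractions. It had peaks in 3 MPP3 libraries (5.84 to 8.6), in 1 young and 1 aged HSC library (5.24 and 5.88) and in 1 young and 1 aged MPP2 library (6.99 and 11.8), the last of which lay close to the values of GMPs.

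Whether GMPs had a peak in these regions more often than the other fractions was tested for every region called in at least 2 libraries (Fisher's exact test, two-sided, 4 GMP against 32 other libraries, Benjamini-Hochberg adjusted over 85671 regions, threshold 0.05). Of the 14 regions of the primary granule genes that were tested, 12 were called more often in GMPs and none less often. For comparison, 34.9% of all regions tested were called more often in GMPs and 1.27% less often, and GMP libraries held the most peaks (52576 to 63288, against 9581 to 40157 elsewhere, at the same number of reads per library). The part of this in the calls of these genes was not tested. Adjusted p was 0.000157 for Mpo -13944, Elane -1588, Elane -35 and Ctsg -2651, which had peaks in 4 of 4 GMP and 0 of 32 other libraries. It was 0.000633 for Mpo +35 and Mpo +14273 (1 of 32), 0.00168 for Ctsg +33 and Ctsg -3098 (2 of 32), 0.00282 for Ms4a3 -102 and Mpo -3283 (3 of 32) and for Prtn3 -2262 (3 of 4 GMP and 0 of 32 other libraries), and 0.0206 for Ms4a3 +5031 (7 of 32). The regions with 0 or 1 of 32 other libraries met the filter of at least 2 libraries only through their peaks in GMPs. Their tests could therefore only point to GMPs, and no conclusion is drawn from their p-values. They are among the 12 regions called. Without this filter, 12 of 15 regions were called more often in GMPs. The call for Ms4a3 +5031 was lost without any 1 of the 4 GMP libraries (adjusted p = 0.0565 to 0.061). The regions that did not pass were Mpo -14955 (3 of 4 GMP and 6 of 32 other libraries, adjusted p = 0.101) and Prtn3 -1538 (4 of 4 and 27 of 32, adjusted p = 1). When each library was limited to its 20000 strongest peaks, 3 regions passed of 6 that were still tested.

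Among GMP peaks these regions ranged from weak to strong. By its mean fold enrichment over GMPs, with 0 where no peak was called, Ms4a3 -102 lay at percentile 89.9 of all regions called in GMPs, Prtn3 -1538 at 84.3 and Mpo -13944 at 79, whereas Ctsg -2651 lay at 38.3, Mpo -14955 at 33, Prtn3 -2262 at 27.7 and Elane -2368 at 2.63. The mean fold enrichment over GMPs of the 12 regions called in all 4 libraries ranged from 6.04 to 19.9 with a median of 11.9, against 12.5 over all 43975 regions called in all 4 GMP libraries. The order by number of reads over the summit was different, with percentiles from 48.4 to 93.9 for the 12 regions. Ctsg +33 had 125 ± 18.9 reads over its summit (SD, n = 4) and Prtn3 -1538 had 123 ± 16.8, at percentiles 93.9 and 93.6 of 43899 such regions, whose median was 34.8 reads. Mpo -3283 and Mpo +35 had 88.5 ± 11.8 and 83.8 ± 11 reads, at percentiles 86.2 and 84.6. In contrast, Mpo -13944 had 39.2 ± 8.46 reads (percentile 56) and Ms4a3 +5031 had 33.5 ± 1.91 (percentile 48.4), near or below the median. The local background, by which the reads are divided, was also high at 4 of the 5 genes. It was 6.54 ± 0.592 reads at Mpo +35, 4.58 ± 0.268 at Elane -35, 6.21 ± 0.591 at Prtn3 -1538 and 8.18 ± 0.812 at Ctsg +33, at percentiles 94.2, 86.2, 93.3 and 97.4, against a median of 1.77 reads. At Ms4a3 -102 it was 2.5 ± 0.386 reads, at percentile 64, which goes with the higher fold enrichment of this region at fewer reads (69 ± 14.3). Hence the ranking of the regions differed between fold enrichment and reads. At Mpo -13944 the background was 1.64 ± 0.245 reads, below the median of all regions.

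**Figure D3:**
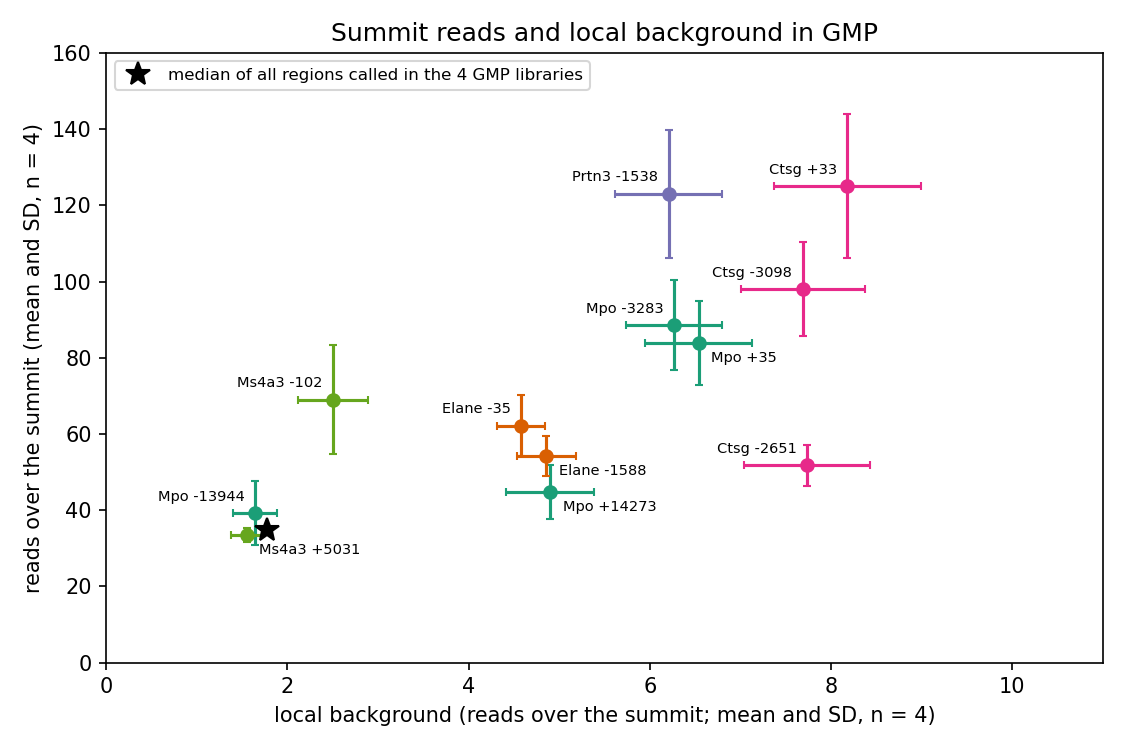
Reads over the summit (y axis) against the local background in reads (x axis) of the 12 regions called in all 4 GMP libraries, as mean and SD (n = 4), colored by gene, with the medians over all such regions as a star. Regions at Mpo, Elane, Prtn3 and Ctsg lie to the right of the star except Mpo -13944, and the regions of Ms4a3 lie at a background of 1.55 and 2.5 reads.

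The exception was Prtn3 -1538 (chr10:79877794-79878359), which had a peak in 31 of 36 libraries. All 8 HSC libraries, all 16 MPP libraries and all 4 GMP libraries had it, as did 3 of 4 CLP libraries, while no MEP library did. MEP libraries held the fewest peaks (9581 to 11041), and the part of this in the missing peak was not tested. In HSCs its fold enrichment was 6.8 to 10.2 in young mice with a median of 8.02, and 5.88 to 9.37 in aged mice with a median of 7.17. MPP1 libraries ranged from 8.28 to 9.63. MPP2 and MPP4 libraries were spread more widely, from 6.4 to 9.58 and from 6.46 to 10.2, and MPP3 libraries most, from 6.99 to 14. The CLP libraries that had it lay at 6.6 to 8.66. In GMPs it was 16.4 in both young libraries and 16.4 and 19.6 in the aged ones, above every library of the other fractions. The ranges of HSCs, the MPPs and CLPs overlapped one another. The neighbouring Prtn3 -2262 (chr10:79877257-79877448) had peaks in 3 GMP libraries alone (4.75 to 5.8).

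GMPs were compared with MPP3, the myeloid-biased multipotent progenitors, in fold enrichment over the 18742 regions called in all 8 of their libraries (limma on log2 values with age as covariate), among which Prtn3 -1538 was the only region of these genes. It was higher in GMPs by 0.79 ± 0.19 (log2, SE, adjusted p = 0.00154). This is to be read against the 63.5% of all regions that were higher and the 2.82% that were lower in GMPs, and a median difference over all regions of 0.52. After each library was centred on the regions called in all 36 libraries, the difference was 0.31 (adjusted p = 0.124) and did not pass the threshold. Fold enrichment is a ratio to the local background, which was 5.65 to 6.95 reads in GMPs and 2.78 to 4.3 in MPP3. The summit held 108 to 144 reads in GMPs and 26 to 73 in MPP3. These reads were not counted over the same width, and their difference was not tested.

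**Figure D4:**
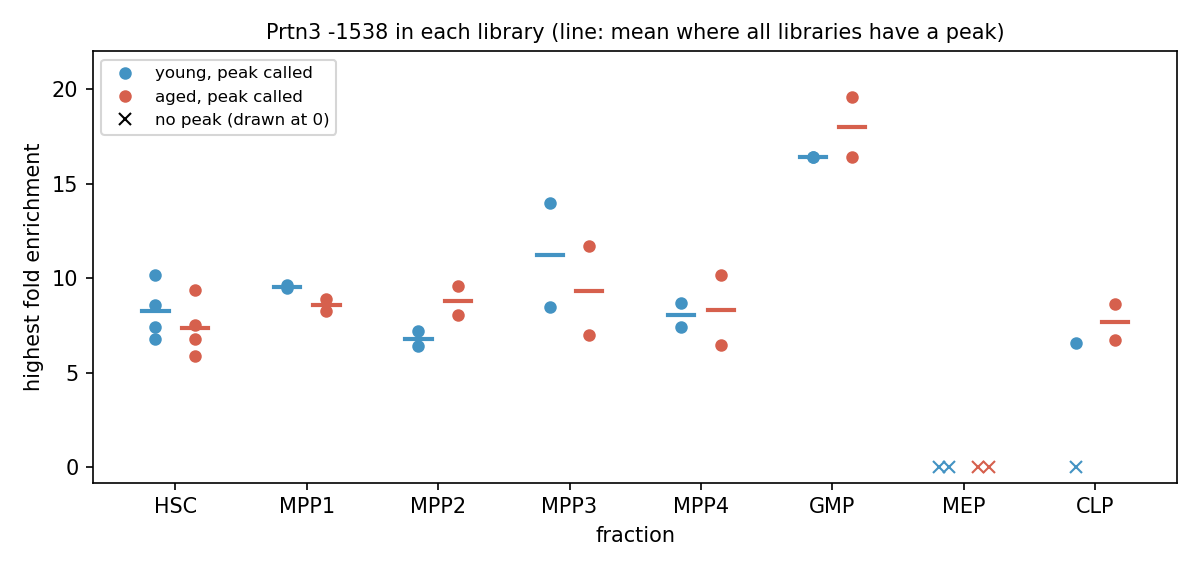
Highest fold enrichment at Prtn3 -1538 (y axis) in each library by fraction (x axis) and age (color), with crosses at 0 for libraries without a peak and lines for means where all libraries of a group had one. GMPs lie at 16.4 to 19.6, above HSCs at 5.88 to 10.2, and the 4 MEP libraries and 1 young CLP library have no peak.

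Outside GMPs, and leaving out Prtn3 -1538, the regions had 25 peaks, in 8 of the 14 regions. Of these peaks 13 were in MPP3, 5 in MPP4, 4 in MPP2, 2 in HSCs, 1 in CLPs and none in MPP1 or MEPs. They held 9 to 21 reads over the summit at a local background of 0.783 to 1.69 reads, and their fold enrichment was 4.46 to 11.8. The highest were 11.8 at Ms4a3 +5031 in aged MPP2 replicate 1, at percentile 73.4 of the regions of that library, and 10.1 at Mpo -14955 in young MPP3 replicate 1, at percentile 64.7. In MPP3 they fell unevenly over the libraries: 5 in young replicate 2, 5 in aged replicate 2, 2 in young replicate 1 and 1 in aged replicate 1. Of the 5 peaks in MPP4, 4 were in young replicate 2. The same libraries also had a higher median fold enrichment over the regions called in all 36 libraries, 15.5 against 13.4 in young MPP3, 14.2 against 12.2 in aged MPP3 and 15.2 against 13.4 in young MPP4, and Prtn3 -1538 was stronger there, at 14 against 8.47 in young and 11.7 against 6.99 in aged MPP3. The part of this difference between libraries in the peaks of these genes was not tested.

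Whether MPP3 had these regions more often than HSCs and the other MPPs was tested in the same way (4 against 20 libraries, 57383 regions called in at least 2 of them). Of 6 regions of the primary granule genes that could be tested none passed, and neither did any region of the genome (0% called by Fisher's exact test with Benjamini-Hochberg adjustment, 1942 regions at an unadjusted p under 0.05). The smallest exact p that 4 against 20 libraries allow, 9.41e-05, is too large for a single region to pass the adjustment over 57383 regions, and at Prtn3 -1538, called in all 24 libraries, only p = 1 was possible. The largest difference among them was at Mpo -14955, in 3 of 4 MPP3 and 3 of 20 other libraries (exact p = 0.0353 before and 1 after adjustment). Ms4a3 +5031 followed with 3 of 4 against 4 of 20 libraries, and Mpo -3283 and Ms4a3 -102 had 2 of 4 against 1 of 20.

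No region of these genes differed between the ages past the threshold in any test. Over all fractions, aged and young libraries were compared by an exact conditional test with fraction as stratum. None of the 14 regions tested passed (adjusted p = 1 each), nor did any of the 85671 regions (0% called, 1169 at an unadjusted p under 0.05). The numbers of calls left this test almost no room to call a member: at 8 of the 14 regions, among them Mpo -13944, Elane -1588, Elane -35 and Ctsg -2651, which were called in the 4 GMP libraries alone, an exact p of 1 was the only possible value, and at the other 6 the smallest possible exact p before adjustment was 0.0357 to 0.5. The absence of a call here is therefore no evidence that the ages were alike. Each of the 15 regions was called in numbers of aged and young libraries that differed by at most 2 of 18. In HSCs, where 4 aged and 4 young libraries were compared by Fisher's exact test with a smallest possible p of 0.0286, 2 of the regions could be tested: Prtn3 -1538 was called in all 8 libraries and Ms4a3 +5031 in 1 of 4 at each age, so that the first could only give p = 1. Again no region of 40434 passed (0% called, 365 at an unadjusted p under 0.05), which the smallest possible p all but fixes for this many regions.

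In GMPs the strength of the 12 regions called in all 4 libraries was compared between the ages (limma on log2 fold enrichment, 2 against 2 libraries, 43975 regions). None differed past the threshold (adjusted p = 0.905 to 0.994), and this was true of all regions (0% called, 2489 at an unadjusted p under 0.05). The largest difference was at Mpo +14273, by 0.44 ± 0.26 (log2, SE), followed by Elane -35 with 0.31 ± 0.23, while Mpo -13944 differed by -0.29 ± 0.19. At the start sites of Mpo, Ctsg and Ms4a3 the differences were 0.07 ± 0.23, 0.17 ± 0.20 and 0.11 ± 0.16. Both aged libraries lay above both young ones in 4 of the 12 regions (Mpo +14273, Elane -35, Ctsg +33 and Ms4a3 +5031), and below them in 2 (Mpo -13944 and Elane -1588). Among all regions 20.8% lay above and 13.3% below. In the other 6 regions the ages overlapped.

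**Figure D5:**
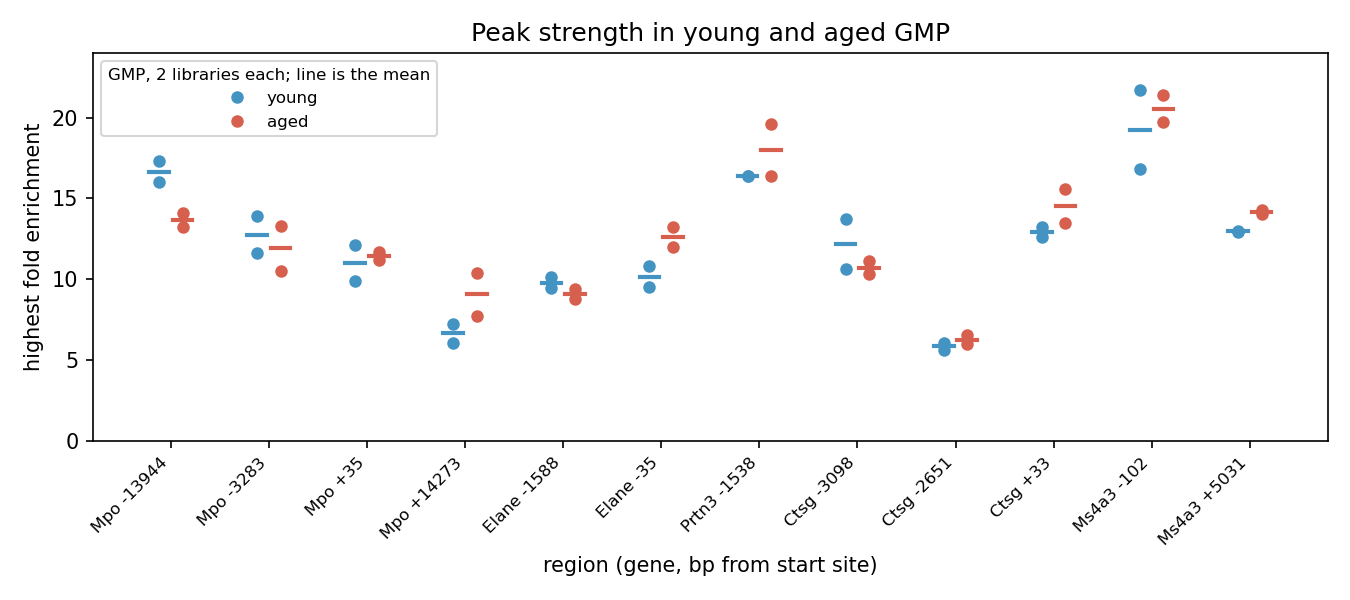
Highest fold enrichment (y axis) of the 12 regions called in all 4 GMP libraries (x axis), with a point for each of 2 young and 2 aged libraries and a line for each mean. The aged points lie above the young ones in 4 regions and below in 2, none past the threshold after adjustment.

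At Prtn3 -1538 the same test was run in HSCs and MPP3, and not in the other MPPs. In HSCs aged libraries differed from young ones by -0.16 ± 0.20 (log2, SE, 4 against 4 libraries, limma, adjusted p = 0.921), while 0.0115% of 17340 regions were higher with age and 0% lower. In MPP3 the difference was -0.27 ± 0.32 (adjusted p = 0.994), with 0% of 21513 regions called and 891 at an unadjusted p under 0.05. In MPP1 the aged libraries had 8.28 and 8.93 and the young ones 9.48 and 9.63. Both aged libraries lay below both young ones in 11.3% of all regions called in all MPP1 libraries, and above them in 18.3%. In MPP2 the aged libraries had 8.06 and 9.58 and the young ones 6.4 and 7.2, where 18.2% of all regions lay above and 13.7% below. In MPP4 the aged libraries (6.46 and 10.2) and the young ones (7.42 and 8.7) overlapped. The difference between ages in GMPs, 0.13 ± 0.17, was larger than that in MPP3 by 0.40, which did not pass as an interaction (limma, adjusted p = 0.891).

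The other genes of the program were examined by the region nearest to their TSS, with the test of GMPs against the other fractions. Of 15 further genes of primary granules or promyelocytes, 14 could be tested and 5 were called more often in GMPs, a share near the 34.9% of all regions tested: Fcnb (ficolin-B), Plac8, Nkg7, Igsf6 and Prss57 (adjusted p = 0.000633 to 0.0206). In contrast, the regions of Ctsc, which encodes the cathepsin that activates the granule proteases, of Srgn, which encodes the proteoglycan serglycin that packs them, and of the lysosomal gene Gusb were called in every library of HSCs, MPPs, GMPs and CLPs. Of 10 genes of later granules, 8 were called more often in GMPs, among them Ngp and Lcn2 (4 of 4 GMP and 0 of 32 other libraries, adjusted p = 0.000157 each) and Camp (2 of 32, adjusted p = 0.00168), while Ltf and Mmp9 were not. Of 8 transcription factor genes 2 passed, a share below the 34.9% of all regions: Cebpe (3 of 4 GMP and 0 of 32 other libraries, adjusted p = 0.00282) and Gfi1 (adjusted p = 0.0349). The regions at Cebpa and Spi1, the gene of PU.1, were called in every library except those of MEPs. None of the genes in these 3 lists was called less often in GMPs. Of the 10 neighbouring genes of the same clusters or families, 7 had a region, and of 5 tested 2, Mcpt8 and Ms4a6c, were called more often in GMPs, also near the share of all regions. Gzmb and Cma1, which lie in the same protease cluster as Ctsg, were called in no GMP library. The regions of Ngp, Lcn2, Cd177, Cebpe and Mcpt8 met the filter of at least 2 libraries through GMPs alone. Those of Fcnb, Plac8 and the later granule gene Chil3, with a peak in 1 other library each, also met it only through GMPs. The tests of all these regions could only point to GMPs, and no conclusion is drawn from their p-values.

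Among the 11447 promoter regions of other genes that were compared, those of Hp (haptoglobin), Camp (cathelicidin), Rab44, Hal and Nek9 followed the mean profile of the 5 regions nearest to the TSS most closely over the 36 libraries (Pearson's r = 0.97 for Hp and 0.96 for the others, on log2 of fold enrichment plus 1 with 0 where no peak was called). The libraries share their fraction, so that r mainly reflects peaks in GMPs: each of the 5 genes had a peak in 4 GMP and in 2 or 3 other libraries. Among the members themselves, r lay between 0.83 and 0.95 for the pairs of Mpo, Elane, Ctsg and Ms4a3, and between 0.38 and 0.45 for those with Prtn3. These values are descriptions without a test.

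As a check of the sort, the region at Csf1r was called in the 4 GMP libraries alone and that at Cebpe in 3 of them alone, while Csf3r and Fcgr3 had peaks in GMPs and in several other fractions. Gata1, an erythroid marker, was called in 3 MPP2 libraries and 1 MEP library. The erythroid genes Klf1 and Epor had peaks in all libraries of HSCs, MPPs and GMPs. In MEPs Epor was called in all 4 libraries and Klf1 in 1. Among the stem cell markers, Hlf was called in all libraries but 3 of MEPs and Meis1 in all HSC, MPP and GMP libraries, whereas Prdm16 was called in 1 GMP library only. Mecom, also a stem cell marker, went against the label: it was called in 0 of 8 HSC libraries and 0 of 4 MPP1 libraries, but in 3 GMP, 3 MPP4, 2 MPP3, 2 CLP and 1 MPP2 library. Il7r, a lymphoid marker, was called in all CLP, MPP4 and GMP libraries and no other. Of the lymphoid genes Dntt and Ebf1 had peaks in most fractions and Rag1 had no region. A peak near the TSS of a marker thus did not always follow the label, and no library was left out.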

How the data were processed

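Per the labels and the methods of the study, single-read ATAC-seq libraries (60 bp) of 36 samples were aligned with Bowtie2 to mm10, subsampled with SAMtools to equal reads, and peaks were called in each library with MACS2 2.2.6. The deposited peak lists hold an integer score, the fold enrichment at the summit, a ratio over local background, and the −log10 p- and q-values that the authors' peak caller computed. Read counts were not among the values, and the count model of the study was therefore not run. Reads over the summit k and local background λ were solved from the fold enrichment (k + 1)/(λ + 1) and the Poisson p-value, to a tolerance of 0.001 in −log10 p.

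Peaks of all libraries were merged and assigned to the nearest protein-coding TSS (GENCODE release 21, basic set). A region is called where it overlaps a peak of the library. Calls were compared by exact tests over regions called in at least 2 libraries, and log2 of the highest fold enrichment by limma 3.58.1 (R 4.3.3) over regions called in all libraries compared, with Benjamini-Hochberg adjustment and a threshold of 0.05. Fisher's exact test was also run on simulated calls. A simulation for limma used values on another scale than the data, and no support is drawn from it. Sequences were read from GRCm38.p6, the assembly of mm10, and the RefSeq promoters of all 5 genes equalled it. Groups came from the labels, and no libraries were identical.

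The rule for regions to describe with values took the region nearest to each TSS, regions that passed a test and the 10 strongest in GMPs. Mpo -14955 and Elane -2368 fall outside it and were added after their values were seen, so that all 15 are described. The members, gene lists, motifs and tests were chosen with earlier results of these data known. Alternatives were a −log10 q of at least 10, a peak that covers 50% of the region, the 20000 strongest peaks per library, start sites of all biotypes, no filter on rare regions, centring on shared regions, the −log10 q in place of fold enrichment, leaving out each library and the replicate number as a block. The result for 1 marker gene is not reported here.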

Additional observations from a re-analysis of the deposited data

Results flagged for a closer look

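At Prtn3 -1538 the ages lay apart in opposite directions in MPP1 and MPP2, and overlapped in MPP3 and MPP4. Taken by replicate number, the aged MPP3 library was the lower one both times (6.99 against 8.47, and 11.7 against 14). In MPP4 it was lower in replicate 1 (6.46 against 7.42) and higher in replicate 2 (10.2 against 8.7). In MPP1 both aged libraries lay below both young ones, with a difference of mean fold enrichment of -0.95 (8.6 ± 0.461 in aged and 9.56 ± 0.103 in young mice, SD, n = 2 each). In MPP2 both aged libraries lay above both young ones, with a difference of 2.02 (8.82 ± 1.08 and 6.8 ± 0.57, SD, n = 2 each). Ages that do not overlap are common with 2 libraries each: in MPP1 11.3% of all regions called in every library lay below and 18.3% above, and in MPP2 13.7% below and 18.2% above. The difference between the fractions was not tested.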

How the results depend on the processing

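The 67 results were recomputed under 1790 alternatives, and 1767 were rated the same. For a single region this means that the direction did not reverse and the side of the threshold was kept. For a count of regions it allows a small change, such as 11 in place of 12. Alternatives in which a region could not be tested are left out. Tests of age whose result was fixed by the numbers of calls are included. With the 20000 strongest peaks of each library, 3 regions were called more often in GMPs instead of 12, as fewer regions were tested, and Mpo -3283 lost its call (21.9 percentage points, adjusted p = 0.568). Leaving out each library in turn gave 11 or 12. Centring ended the difference between GMPs and MPP3 at Prtn3 -1538 (0 regions called instead of 1), whereas leaving out each library gave 1 or 2 regions called higher in GMPs, with 2 without aged MPP3 replicate 1, where 2 regions could be tested. Mpo -14955 passed for GMPs without aged GMP replicate 2 (81.2 percentage points, adjusted p = 0.0447) and turned to -12.5 points under a required cover of 50% and -6.25 with the strongest peaks.

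Small differences between the ages, none of them called, changed sign. Over all fractions, Mpo -3283 turned to -6.25 points with a −log10 q of at least 10 and to -12.5 with the strongest peaks, and Ms4a3 +5031 to 12.5 and 18.8. In log2 fold enrichment in GMPs, without 1 library, Mpo -3283 lay between -0.27 and 0.07 (0.03 without young GMP replicate 2), Mpo +35 between -0.08 and 0.21, Ctsg -3098 between -0.36 and 0.02, Ms4a3 -102 between -0.08 and 0.29, and Prtn3 -1538 in MPP3 between -0.64 and 0.11. The cause was not tested in any of these.

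Replicate numbers were not taken to pair the libraries: deviations of same-numbered young and aged libraries correlated at -0.10 to 0.24, over 0.1 in 7 of 18 pairs, among them those of GMPs (0.24), MPP3 (0.17) and MPP1 (0.12). With 2 libraries per age, both pairs of a fraction share 1 value by construction, so that the pairs are not separate observations. Leaving out 1 library also breaks such a pair. With the replicate number as a block, 12 regions were again called more often in GMPs, and no other call changed (Prtn3 -1538 between ages in MPP3 was -0.27, adjusted p = 0.801). With peaks only, a region with fewer than about 7 reads over its summit has no value. This limit lies higher where the local background is higher. Having 2 libraries per age limits what the tests of age can show.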
